A study of Zea mays with 48 samples.

Results

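Gene expression in the young maize endosperm was compared between the reciprocal hybrids 301x250 and 250x301, which carry the same 2 parental genomes with the roles of seed and pollen parent exchanged. The comparison rests on 8 of the 48 arrays of the series, chosen by their titles: endosperm, lines 301 and 250, replicates 1 and 2. The hybrids came from crosses of the inbred lines UH301 and UH250, written 301 and 250 in the titles, and the first-named line was taken as the seed parent by convention. The selfed inbreds 301 and 250 served as partners on the arrays, and no treatment or transgene was involved. Set beside these were 8 embryo arrays of the same cross and 16 endosperm arrays of the hybrids 301x005 and 005x301, also at 6 days after pollination. The hybrids 301x005 and 005x301 came from UH301 and another inbred line, UH005, and were set against 301 and 005. Some alternative fits drew their spread from all 48 arrays. All plants grew in a glasshouse, the selfings and crosses of a set were made on 1 day, and endosperm was isolated by hand 6 days after pollination. How many ears or kernels went into an RNA sample was not stated in the sources used here.

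The endosperm is the nourishing tissue of the cereal grain. It arises when a sperm nucleus fuses with the polar nuclei of the embryo sac, so it holds more copies of the maternal than of the paternal genome. Reciprocal endosperms therefore differ in the dosage of each parent's alleles, and genes that are expressed from only the maternal or only the paternal copy, the imprinted genes, can make them differ further. Polycomb proteins, DNA methylation and histone modification are known to take part in imprinting in this tissue.

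Each replicate was a closed loop of 4 two-colour arrays in which 301x250 and 250x301 were each hybridised against 301 and against 250. All values are log2 ratios turned to hybrid over inbred, so a value of 1 is a 2-fold higher level in the hybrid. The direction of the deposited ratio is not stated. It was taken as channel 1 over channel 2, after the order of the RNAs in the titles, which is likely but not certain, and if it ran the other way every sign below would turn. The reciprocal difference of a replicate is 301x250 minus 250x301, averaged over the comparison through 301 and the comparison through 250. A constant dye effect cancels in it. Where a pair of values is given for a genotype, replicate 1 stands before replicate 2. Arrays held values for 2799 to 3162 of 3585 probes, and array medians lay between -0.03 and 0.04. A probe was tested if it had a value on all 8 arrays, which 2436 did, while 924 had values on some arrays and 225 on none. The labels call the loops biological replicates. With 2 of them a p-value measures only the spread between these loops, which the test draws in part from all tested probes. RNA was amplified by PCR before labelling, and no signal intensities entered, so how bright a spot was is not known here. The precision is limited by how few arrays there were.

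No gene separated the reciprocal endosperms beyond the threshold. The lowest p-values belonged to probes with no gene name, PA1, which was higher in 301x250 in both replicates, and PG6 and BE7, which were lower. FIE1, an imprinted Polycomb gene, and most probes of several chromatin families had means slightly below 0, that is lower in 301x250, also without passing the test. MRP1, a marker gene of the endosperm, had a mean of 0.61 at an unadjusted p like that of FIE1 (0.0353 and 0.0357, limma). Of 71 tested chromatin probes, 57 were below 0 in replicate 1 and 44 in replicate 2. In endosperm of cross 301/005, 30 of 67 chromatin probes had a mean below 0, against 59.9% of all probes there. None of 2436 probes differed between 301x250 and 250x301 at an adjusted p under 0.05 (limma; percent called 0), and the lowest adjusted p was 0.401. At an unadjusted p under 0.05 there were 133 probes, or 5.46% of those tested, of which 76 were higher in 301x250 (3.12%) and 57 lower (2.34%). The mean reciprocal difference ran from -1.27 to 2.85 with a median of 0.02 and 54.8% of probes above 0, and it went beyond 1 in either direction at 12 probes (0.493%). In both replicates it lay above 0.5 at 10 probes (0.411%) and below -0.5 at 13 probes (0.534%). Only PA1 lay above 1 and only PG6 below -1 in both (0.0411% each). The median standard error was 0.121. For 2297 probes (94.3%) the 95% interval lay wholly between -1 and 1, so a difference of 2-fold or more lay outside the interval at those probes. Without replicate 2, and with the spread of all 12 loops, 2 probes passed, RE2 and S_CC667, and without replicate 1 none did (32 at an unadjusted p under 0.05).

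The replicates shared little of the reciprocal pattern. Across the 2436 probes the reciprocal difference of replicate 1 correlated with that of replicate 2 at Pearson's r 0.113 and Spearman's rho 0.069. Both replicates were above 0 at 691 probes (28.4%), both below 0 at 574 (23.6%), and 1171 probes (48.1%) had opposite signs. The difference between the inbreds, 301 minus 250, taken from the same arrays, correlated between the replicates at r 0.372. These correlations are across probes, which are not independent replicates, and each rests on values that share arrays within a loop.

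**Figure D1:**
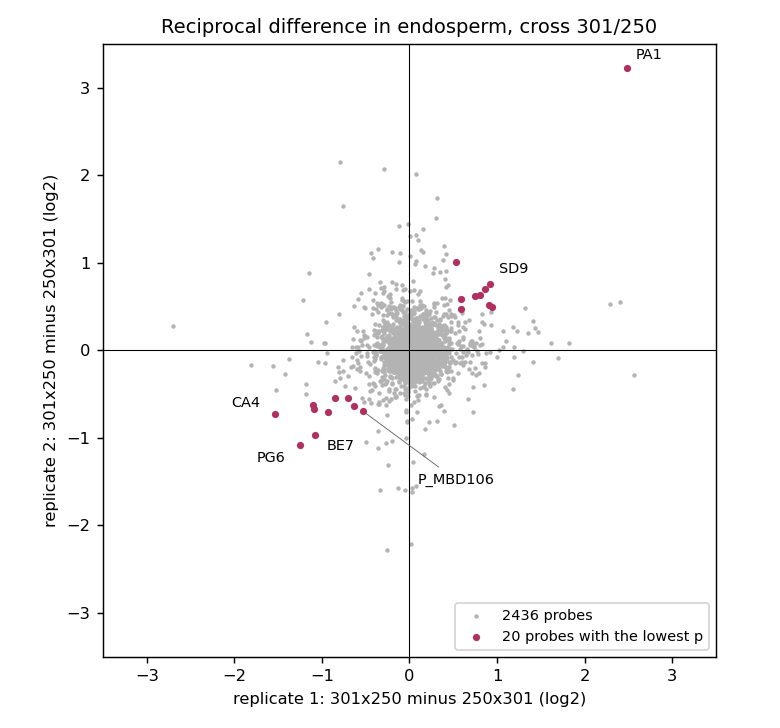
Reciprocal difference of 2436 probes in endosperm (301x250 minus 250x301, log2), replicate 1 on the horizontal and replicate 2 on the vertical axis. Coloured points are the 10 probes higher and the 10 lower in 301x250 that had the lowest p with 1 sign in both replicates, a choice that places them in these corners. Most probes form a round cloud near 0, and PA1 lies far to the upper right at 2.48 and 3.22.

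Among the probes lower in 301x250, BE7 gave the most even values. It carries no gene name in the files. Against inbred 301, BE7 measured -0.13 and 0.15 in 301x250, and 0.94 and 1.15 in 250x301. Against inbred 250 it measured -0.89 and -0.33 in 301x250, and 0.18 and 0.61 in 250x301. All 4 values of 301x250 thus lay below all 4 of 250x301, and each comparison through an inbred gave a difference between -0.94 and -1.07. The mean reciprocal difference was -1.02 ± 0.11 (SE, 2 loops; unadjusted p 0.000783, adjusted p 0.636, limma). When the 8 arrays were fitted singly with the replicate as a block, BE7 was the only probe called (adjusted p 0.0395), in a fit that counts arrays sharing RNAs as separate. BE7 was also lower in inbred 301 than in inbred 250 (301 minus 250, -0.76 and -0.51), so the hybrid with 301 as seed parent and inbred 301 itself were both on the low side.

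LD2 and KA9, likewise without gene names, had the same arrangement. LD2 measured 0.21 and -0.20 in 301x250 against 301, where 250x301 had 1.25 and 0.68. Against 250 it measured 0.19 and -0.15 in 301x250, and 1.00 and 0.37 in 250x301. No value of 301x250 reached the lowest of 250x301, and the reciprocal difference was -0.93 and -0.70 (mean -0.81 ± 0.13 SE, adjusted p 0.848). KA9 had a reciprocal difference of -0.63 in both replicates (SE 0.11, adjusted p 0.848). Its ratios in 301x250 were 0.23 and 0.43 against 301 and -0.63 and 0.40 against 250. In 250x301 they were 0.84 and 1.17 against 301 and 0.03 and 0.92 against 250. KA9 therefore separated the hybrids within each replicate and inbred partner, although the ranges over all arrays overlapped.

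PG6 had the lowest p of the probes lower in 301x250, but its arrays were uneven. Its reciprocal difference was -1.26 and -1.08 (mean -1.17 ± 0.12 SE, adjusted p 0.636). In replicate 1 nearly all of it came through inbred 301, with -0.56 in 301x250 and 1.88 in 250x301. In replicate 2 most came through inbred 250, with -1.94 in 301x250 and -0.10 in 250x301. The standard error of PG6 was near the median of all probes, 0.121. It rests on the 2 loop averages and on a variance shared over probes, not on how alike the arrays were. The remaining probes of this group, P_E19, JE11, PE9, S_CC167, CA4 and the methyl-CpG-binding domain probe MBD106, had means from -1.13 to -0.61.

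PA1 stood apart among the probes higher in 301x250, with a reciprocal difference of 2.48 and 3.22 (mean 2.85 ± 0.22 SE, unadjusted p 0.000164, adjusted p 0.401). Through inbred 301 the difference was 0.49 and 0.93, against 4.47 and 5.52 through inbred 250. Single ratios decided the second path: 301x250 measured 3.13 and 0.15 against 250, and 250x301 measured -1.34 and -5.37. The replicates thus owed the difference to different arrays, a high value of 301x250 in replicate 1 and a low value of 250x301 in replicate 2. The inbred difference of PA1 changed sign between the replicates, 1.34 and -2.25.

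RG1 was more even. It measured -0.01 and -0.23 in 301x250 against 301, where 250x301 had -0.44 and -0.999. Against 250 it measured 1.28 and 0.64 in 301x250, and -0.01 and 0.00 in 250x301. RG1 was higher in 301x250 within every replicate and inbred partner (mean 0.78 ± 0.12 SE, adjusted p 0.848), and it was higher in inbred 301 than in inbred 250 by 0.86 and 0.94. P_E5 was as even, with a reciprocal difference of 0.59 in both replicates (adjusted p 0.848) and inbred differences of -0.09 and -0.07. The other probes of this group, SD9, V_d8_fo4-r04, S_CC0498, S_PR15, S_RL9, S_CC361 and RC5, had means from 0.53 to 0.84. S_RL9 lay far below both inbreds in both hybrids, with ratios from -1.88 to -5.39 in 301x250 and from -2.70 to -6.94 in 250x301, and its reciprocal difference of 0.54 and 1.01 was small beside that.

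**Figure D2:**
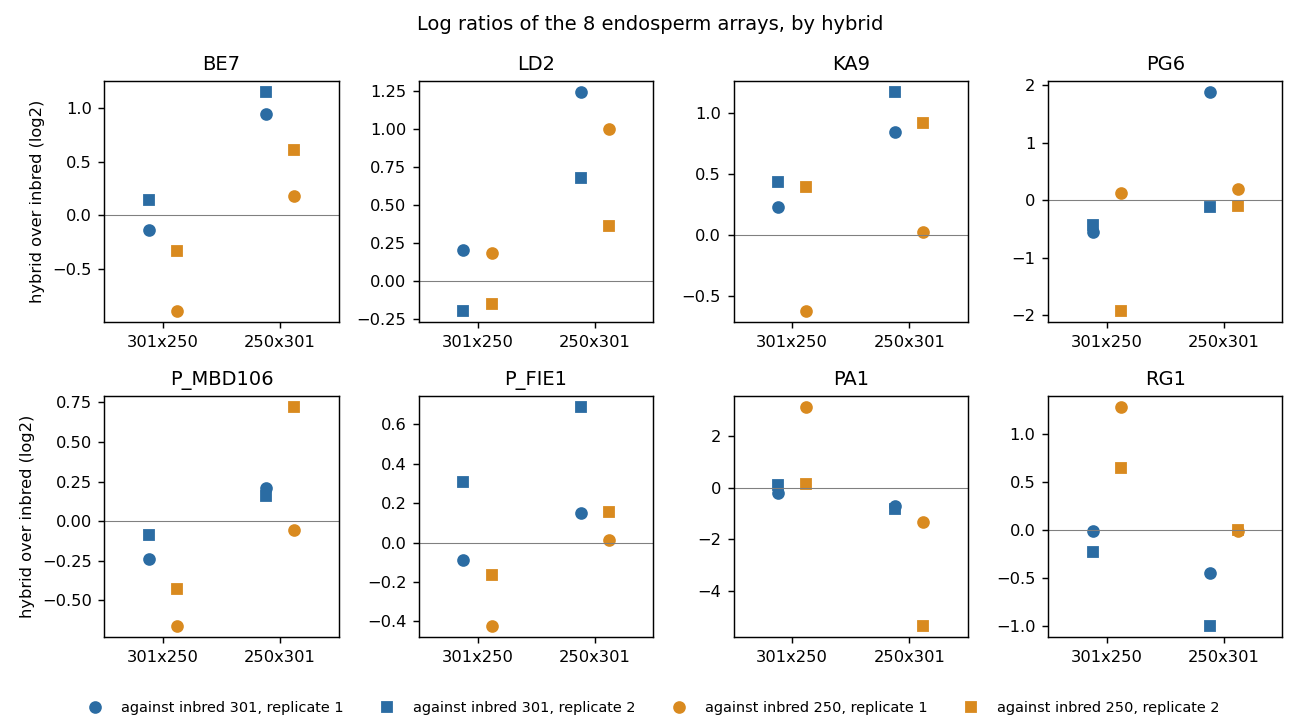
Log2 ratios of hybrid over inbred on each of the 8 endosperm arrays for 8 probes, with 301x250 on the left and 250x301 on the right of each panel. Colour gives the inbred partner and shape the replicate. BE7 and LD2 have all 4 values of 301x250 below those of 250x301, whereas PG6 and PA1 owe their difference to single arrays.

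Of the 20 probes so described, 17 had 1 sign in both paths of both replicates. The path values are parts of the loop value by which these probes were chosen, so the choice itself favoured such agreement. Its share over all probes was not counted. The difference between the inbreds had the sign of the reciprocal difference in both replicates at 9 of the 20, among them BE7, KA9, PG6 and RG1. It came from the same arrays, and the share over all probes was not counted here either. To set the 2 quantities side by side over all probes without shared arrays, the inbred difference was taken from 1 replicate and the reciprocal difference from the other. Across 2436 probes the correlation was 0.115 with the inbred difference from replicate 1 and 0.066 with that from replicate 2. Where the inbreds differed by more than 1 in replicate 1, the reciprocal difference of replicate 2 had the same sign at 39 of 68 probes (57.4%). With the replicates exchanged it was 84 of 150 probes (56%). How often the signs matched over all probes was not counted, so neither count has a background. The median reciprocal difference turned to the inbred sign was 0.07 and 0.02 in these sets.

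The inbreds themselves differed at 2 of 2436 probes at an adjusted p under 0.05 (0.0821%; 361 probes, or 14.8%, at an unadjusted p under 0.05), DC6 and OE10, a comparison looked at after the values had been seen. DC6 was higher in inbred 301 than in inbred 250 by 2.20 and 3.18 (mean 2.69 ± 0.26 SE, adjusted p 0.0145, limma). Its ratios in 301x250 were -0.80 and -0.51 against 301, and 0.86 and 1.91 against 250. In 250x301 they were -1.36 and -1.24 against 301, and 1.38 and 2.71 against 250. Both hybrids thus lay between the inbreds on every array, and the reciprocal difference of DC6 was 0.02 and -0.03 (mean 0.00, 95% interval -0.31 to 0.31), the average of positive values through 301 and negative values through 250. OE10 differed between the inbreds by 1.69 and 2.58 (adjusted p 0.0311), with a reciprocal difference of 1.70 and -0.08.

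Genes with a known tie to imprinting gave mixed values. FIE1, a Polycomb gene expressed from the maternal copy in maize endosperm, was lower in 301x250 with a reciprocal difference of -0.34 and -0.35 (mean -0.34 ± 0.11 SE, unadjusted p 0.0357, adjusted p 0.879). FIE1 measured -0.09 and 0.31 in 301x250 against 301, where 250x301 had 0.15 and 0.69. Against 250 it measured -0.43 and -0.17 in 301x250, and 0.01 and 0.15 in 250x301. The hybrids separated within each replicate and partner, but the separation was small and did not pass the test. Inbred 301 minus inbred 250 was -0.24 and -0.50 at FIE1. MEG1, a small secreted protein of the transfer cells that is expressed early from the maternal copy, had -0.56 and -0.19 (adjusted p 0.894). The whole of the MEG1 difference came through inbred 301, where 301x250 had 0.01 and -0.39 and 250x301 had 1.14 and 0.01. Through 250 it was 0.00 and 0.02.

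FIE2, the second FIE gene of maize, is represented by several probes that gave different answers. The FIE2 probe had a reciprocal difference of -0.15 and 0.76, and the FIE2_5 probe had -0.25 and -2.28, so replicate 2 set them apart. NRP1, another maternally expressed endosperm gene, had a full loop in replicate 1 alone, with -0.69 and no test, and the FIE2_ probe likewise, with -0.53. DMT106, a DNA methyltransferase gene with 2 probes, had -0.60 and 0.22 on its P_ probe (mean -0.19), and 0.25 and -0.10 on its S_ probe (mean 0.08). Of the 6 tested probes of the Polycomb and imprinted list, 4 had a mean below 0 and 3 were below 0 in both replicates, with a median of -0.27, against 45.2% and 23.6% of all tested probes and a median of 0.02. None passed the test, and 1 of the 6 had an unadjusted p under 0.05 (all probes 5.46%). MRP1, the transcription factor that marks the transfer cells and activates their genes, had the opposite sign, 0.28 and 0.94. Its mean was 0.61 ± 0.20 (SE, unadjusted p 0.0353, adjusted p 0.879, limma).

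Chromatin genes were on the array mostly through a probe set whose IDs begin with P_. The 7 lists described were DNA methyltransferases, methyl-CpG-binding domain genes, histone deacetylases, histone acetyltransferases, nucleosome assembly factors, HMG factors, and bromodomain, SET-domain and remodelling genes. The DNA methyltransferase list also holds probes with IDs that begin with S_, and some of its genes have more than 1 probe. No probe of these lists passed the test. Together 71 of their 101 probes were tested, of which 51 (71.8%) had a mean below 0, that is lower in 301x250, against 45.2% of all probes. Both replicates were below 0 at 34 (47.9%), against 23.6% of all probes, and the median was -0.10, against 0.02. At an unadjusted p under 0.05 there were 4 of the 71 (5.63%, all probes 5.46%). More of these probes lay below 0 in replicate 1 than in replicate 2, with 57 of 71 below 0 (all probes 43.9%) in replicate 1 and 44 (all probes 51.3%) in replicate 2. Of all 487 tested probes of the P set, 45.4% had a mean below 0 and 20.1% were below 0 in both replicates. Those that bear plate positions in place of gene names, 333 in number, had 35.7% of means below 0 and a median of 0.05.

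Proteins with a methyl-CpG-binding domain attach to methylated DNA. Of the 9 tested probes 7 had a mean below 0 (all probes 45.2%) and 2 an unadjusted p under 0.05 (all probes 5.46%). MBD106 measured -0.24 and -0.08 in 301x250 against 301, where 250x301 had 0.21 and 0.16. Against 250 it measured -0.66 and -0.43 in 301x250, and -0.06 and 0.72 in 250x301. It was lower in 301x250 in each of these pairs (mean -0.61 ± 0.12 SE, unadjusted p 0.00641, adjusted p 0.848), and all 4 values of 301x250 lay below all 4 of 250x301. MBD119 had a reciprocal difference of -0.27 and -0.62, and MBD109, in the other direction, 0.24 and 0.17. The DNA methyltransferases, which place the mark, were divided: 5 of 10 tested probes had a mean below 0, and the extremes were DMT102 at -0.22 and Zmet3 at 0.30.

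Histone deacetylases remove acetyl groups from histones and acetyltransferases add them. Of 10 tested deacetylase probes 8 had a mean below 0 (all probes 45.2%), of which HDA116 was the lowest with -0.34 and -0.59 (mean -0.47 ± 0.13 SE, adjusted p 0.848). HDA102 (-0.36) and HDA113 (-0.34) followed, each with both replicates below 0. Of 6 tested acetyltransferase probes 5 had a mean below 0, with HAC111 at -0.27, HAG103 at -0.26 and HAG107 at -0.21. All 8 tested probes of nucleosome assembly factors, the chaperones that load histones onto DNA, had means below 0, the lowest at -0.17, and 5 were below 0 in both replicates. The HMG list, which holds architectural DNA-binding factors and NFE101, was divided with 5 of 10 below 0, between NFD109 at -0.39 and NFD107 at 0.24.

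Bromodomain proteins bind acetylated histones and SET-domain proteins methylate them. Of 18 tested probes of the bromodomain, SET-domain and remodelling list 13 had a mean below 0 (all probes 45.2%) and 10 were below 0 in both replicates (all probes 23.6%). BRD103 was even, with -0.31 and -0.40 (mean -0.36 ± 0.11 SE, adjusted p 0.879), and SDG109 had -0.18 and -0.49. SDG117 had the lowest mean of the list, -0.85, with -0.13 and -1.57 in the replicates. Of 4 further tested probes named SET, SET106 had -0.52 and -0.59 (mean -0.56 ± 0.11 SE, unadjusted p 0.0075, adjusted p 0.848). SET106 was lower in 301x250 within each replicate and partner: against 301 it had -0.28 and -0.36, and 250x301 had 0.04 in both. Against 250 it had -0.68 and -1.25 in 301x250, and 0.03 and -0.46 in 250x301.

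**Figure D3:**
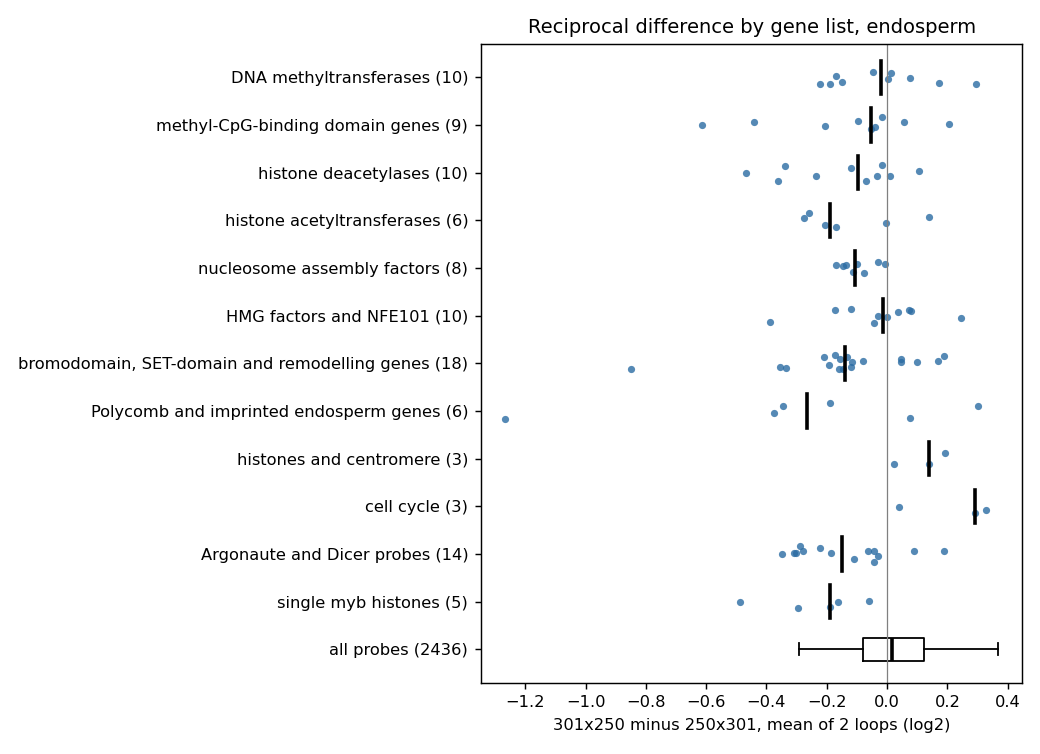
Mean reciprocal difference (301x250 minus 250x301, log2, mean of 2 loops) of each tested probe, by gene list, with the number of tested probes in brackets. Black bars are medians, and the bottom row gives all 2436 probes as a box of quartiles with whiskers at the 5th and 95th percentiles. Nucleosome assembly factors and single myb histones lie wholly below 0, whereas histone and cell cycle probes lie above it, all within a range where no probe passed the test.

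Outside these lists, all 5 single myb histone probes, a list made after the probe names had been seen, had means below 0 (all probes 45.2%), from -0.49 (SMH103) to -0.06. Both replicates were below 0 at 4 of them (all probes 23.6%). These proteins bind telomeric DNA in maize. Argonaute and Dicer probes, named for the families that make and use small RNAs, had 12 of 14 means below 0 and 4 with both replicates below 0, on a list of the same origin, and their median was -0.35 in replicate 1 and 0.03 in replicate 2. Of 11 retroelement probes 2 were tested, STONOR with -0.30 and -0.57 and PREM1 with 0.07 and -0.33. The 3 histone probes lay at 0.19 for H2B5, 0.14 for the centromeric histone CENH3 and 0.02 for H2A, none with 1 sign in both replicates. Of the cell cycle probes, that of the cyclin-dependent kinase gene CDC2 had 0.26 and 0.32, the cyclin probe 0.19 and 0.47, and the probe of WEE1, a kinase that restrains entry into mitosis, 0.13 and -0.05. Among genes often used as references, GAPDH had 0.20 and -0.14, ubiquitin 0.14 and -0.11, and actin 0.01 and -0.23. The heat shock chaperone HSP101 had 0.09 and -0.04. Other named probes, CRD101, ES1, RS2 and SPS, had means from -0.17 to 0.11 and opposite signs in the replicates.

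Tissue markers could be checked only by presence, because every array set endosperm against endosperm. Of 15 endosperm markers 4 had a probe, and of 8 embryo and 5 maternal nucellus or pericarp markers none had. MEG1, MRP1 and FIE1 had values on all 8 arrays of these hybrids and NRP1 on 4. Over the series MEG1 had values on 19 of 24 endosperm arrays and on 10 of 24 embryo arrays, MRP1 on 21 and 11, FIE1 on 20 and 13, and NRP1 on 14 and 13. The share of maternal tissue in a sample was therefore not tested, and a smaller share of a cell type cannot be told apart from less RNA per cell in such bulk samples.

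To see whether the endosperm differed from the embryo, the reciprocal difference was compared between both tissues of this cross. The embryo, unlike the endosperm, receives equal genome copies from both parents. None of 1507 probes measured in both tissues differed in its reciprocal difference at an adjusted p under 0.05 (limma; percent called 0, lowest adjusted p 0.349), with 183 probes (12.1%) at an unadjusted p under 0.05, of which 57 were higher in endosperm (3.78%) and 126 lower (8.36%). That count rested on the spread between the embryo loops: 129 probes passed without embryo replicate 1 and 181 without embryo replicate 2, where the remaining embryo loop was assumed to vary like the endosperm loops. Of the probes lower in endosperm, DB10, BE7, UF10, S_CC1128 and UA7 had the lowest p. For BE7 the reciprocal difference was -1.07 and -0.97 in endosperm, and 0.55 and 0.29 in embryo (difference -1.44 ± 0.20 SE, adjusted p 0.349). DB10, UF10, S_CC1128 and UA7 lay between -0.29 and 0.16 in every endosperm replicate and between 1.01 and 1.53 in every embryo replicate. At these 4 probes the embryo loops were the ones far from 0. PG6 had a larger difference at a higher p, with -1.26 and -1.08 in endosperm, and 0.70 and 0.02 in embryo (difference -1.53 ± 0.29 SE, adjusted p 0.349). Of the probes higher in endosperm, the lowest p was that of MH11, which had 0.14 and -0.06 in endosperm, and -0.89 and -1.10 in embryo (difference 1.03 ± 0.20 SE, adjusted p 0.349). S_CC402, RA3, P_C1 and the histone acetyltransferase probe HAC101 had the same arrangement, with differences from 0.80 to 0.96. FIE1 was lower in the 301-seeded hybrid in both tissues. It had -0.34 and -0.35 in endosperm, and -0.85 and -1.17 in embryo (difference 0.67 ± 0.21 SE, adjusted p 0.381, limma). The 1 full loop of FIE1 in endosperm of cross 301/005 gave -0.05.

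The embryo loops were wider across probes than those of the endosperm, and their replicates were more correlated. Their reciprocal difference had a standard deviation across probes of 0.580 and 0.569 and correlated between replicates at 0.294 over 1678 probes. In endosperm the standard deviations were 0.312 and 0.309, with the correlation of 0.113 over 2436 probes. In embryo replicate 1, the array of 250x301 against 301 held values for 2141 probes, 25.41% of them beyond 2-fold. The other embryo arrays of this cross had from 6.988% to 12.02% beyond 2-fold. How far that array widened the embryo loops was not tested. Of the 20 probes described above, 7 had both embryo loops, and the embryo mean had the endosperm's sign at 4 of them. The share of such agreement over all probes was not counted. The 7 chromatin lists had 39 of 51 embryo means below 0, against 47.4% of all probes in the embryo.

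Cross 301/005 exchanged inbred 250 for inbred UH005 and had up to 4 endosperm loops. None of 2251 probes differed between the crosses at an adjusted p under 0.05 (limma; percent called 0, lowest adjusted p 0.0901), with 175 (7.77%) at an unadjusted p under 0.05, of which 65 were higher in cross 301/250 (2.89%) and 110 lower (4.89%). With each array centred and scaled 3 passed, KH7, PA1 and RE3, and with single arrays and the loop as a block 4 passed, PD2, RA6, RE3 and SG1. BE7 and KA9 had the same sign in every loop of both crosses. BE7 had -1.07 and -0.97 in 301x250 minus 250x301, and -0.41, -0.77, -0.99 and -0.77 in 301x005 minus 005x301, with a difference of -0.29 ± 0.21 (SE, adjusted p 0.785). KA9 had -0.63 in both replicates of 301x250 minus 250x301, and from -0.88 to -0.55 in the 4 loops of 301x005 minus 005x301. BE7 was lower in inbred 301 than in inbred 005 in all 4 loops (301 minus 005, -0.67 to -1.30), as it was against inbred 250. Of the 20 probes described above, 17 had at least 2 loops in cross 301/005. Their mean had the same sign at 13 and every loop had it at 7. The share of such agreement over all probes was not counted, so these counts have no background. In cross 301/005, 59.9% of all probes had a mean below 0.

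A group of unnamed probes set the crosses apart in the other way. RF10 had a reciprocal difference of 0.06 and 0.03 in cross 301/250, and 1.74, 1.58 and 1.71 in the 3 measured loops of cross 301/005 (difference -1.63 ± 0.18 SE, adjusted p 0.0901). RD8 had 0.03 and -0.05 in cross 301/250, and 1.60, 1.58 and 1.85 in cross 301/005 (difference -1.69 ± 0.19 SE, adjusted p 0.0901). The 2 sets of loops were far apart and each was narrow, yet the difference did not pass the test over 2251 probes. OE2, and KH7 and PD2 with only 2 full loops in cross 301/005, had the same arrangement. Their values ran from -0.16 to 0.16 in cross 301/250 and from 1.48 to 3.23 in cross 301/005. In each cross these 5 probes were higher in inbred 301 than in the other inbred in all measured loops, by 0.03 to 1.03 over inbred 250 and by 0.43 to 2.15 over inbred 005. In the other direction PA1 had 2.48 and 3.22 in cross 301/250, and -0.74 and -1.49 in 2 loops of cross 301/005 (difference 3.97 ± 0.39 SE, adjusted p 0.0901). S_CC559, S_CC134, SD2 and S_CC1090 followed with differences from 0.73 to 1.52.

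The chromatin lists did not keep their side in the other cross: 30 of 67 probes had a mean below 0 in cross 301/005, against 59.9% of all probes there. MBD119 had -0.27 and -0.62 in cross 301/250, and 0.77 and 1.81 in 2 loops of cross 301/005 (difference -1.73 ± 0.40 SE, adjusted p 0.369). SET106 kept its sign, with -0.54 and -0.58 in cross 301/005. No probe of cross 301/005 passed the test for its own reciprocal difference (0 of 2885, 392 or 13.6% at an unadjusted p under 0.05, limma).

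**Figure D4:**
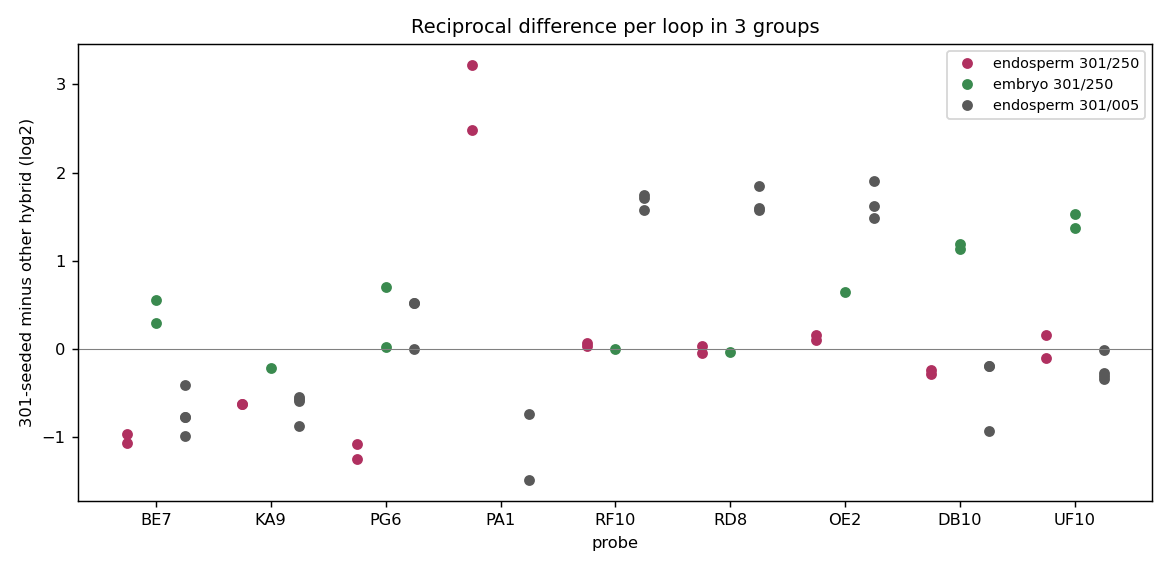
Reciprocal difference per loop (log2, the hybrid with 301 as seed parent minus its reciprocal) for 9 probes in endosperm of cross 301/250, embryo of cross 301/250 and endosperm of cross 301/005, where each point is 1 loop. BE7 and KA9 lie below 0 in every endosperm loop of both crosses, and RF10, RD8 and OE2 lie near 0 in cross 301/250 and at 1.48 or higher in endosperm of cross 301/005.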

How the data were processed

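Endosperm RNA of 2 reciprocal hybrids and 2 inbreds was measured on 8 two-colour arrays. The authors deposited a log ratio for each probe on each array, read here as log2. Its base, its direction and the background correction and normalization behind it were not stated in the sources used here. Of 3592 entries 7 controls were left out. Gene names come from probe IDs, of which 62 matched a RefSeq gene of B73. Other probes are given by ID.

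Odd replicates had the inbred in channel 1 and were negated. Each loop gave 1 reciprocal difference per probe, so the loop is the replicate. limma 3.58.1 (R 4.3.3; lmFit, eBayes) tested it two-sided with Benjamini-Hochberg adjustment over all tested probes and a threshold of 0.05, using only these 2 loops for the spread (prior degrees of freedom 3.08). Differences between groups were tested between loops, on probes with at least 2 full loops in each group. Every p and SE in the text is from limma, and an SE comes with the moderated variance. The fits were also run on simulated data as a check of the code. How many true differences 2 loops would recover is not reported here. The hybrid difference is formed within a loop, so the replicate number cancels in it.

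Named probes are the 10 higher and 10 lower in 301x250 with the lowest p and 1 sign in both loops. To these were added, by p, up to 5 of the Polycomb and imprinted list and fewer of each other list. The 5 lowest p in each direction of each group difference were also named. Members, lists and tests were chosen with earlier results of these data known, and the lists of retroelement, Argonaute and Dicer, SET and single myb histone probes after the probe names had been seen. Alternatives changed the spread, the unit of the fit, the scaling, the path through the loop, the filter on missing values and the replicates used.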

Additional observations from a re-analysis of the deposited data

Results flagged for a closer look

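At several probes every loop of cross 301/250 moved one way and every loop of the other cross or tissue the other way. The differences were tested in limma, and none had an adjusted p under 0.05.

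Between endosperm of cross 301/250 and endosperm of cross 301/005, the difference was -1.516 at PG6. It was 3.967 at PA1, -1.481 at P_E19 and -2.894 at KH7, each measured in only 2 full loops of the other cross. It was -0.734 at DMT105, -1.731 at MBD119, -0.9817 at HDA113, -0.6038 at HAG107 and -1.072 at SMH102, probes of chromatin genes measured in only 2 full loops of the other cross. It was 0.7306 at S_CC559, 0.8681 at S_CC134, 1.136 at S_CC1090 and 0.2247 at UA7. The adjusted p of these differences ran from 0.0901 at PA1 to 0.811 at UA7, where the reciprocal difference in cross 301/250 was only 0.01 and 0.00.

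Between endosperm and embryo of cross 301/250, the difference was -1.529 at PG6, -1.44 at BE7, -0.8997 at NFD109 and -1.43 at DB10. It was 0.9124 at S_CC402, 0.8435 at RA3 and 0.8018 at P_C1. The adjusted p was 0.412 at NFD109 and 0.349 at the others.

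In endosperm of cross 301/005, 1 of 4 loops stood apart by Dixon's test at KA9 (-0.8753, replicate 1), RA3 (0.1926, replicate 2) and UA7 (-0.5121, replicate 2). About 1 in 20 groups is so marked by chance.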

How the results depend on the processing

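The reciprocal difference in endosperm of cross 301/250 gave no called probe in limma under array centring, centring with scaling, the spread of all 12 loops, single arrays without a replicate block, either path alone, or a filter that accepts either path, with 43 to 144 probes at an unadjusted p under 0.05. Single arrays with the replicate block gave 1, BE7. There the block was a fixed term, because the dye orientation is the same as the replicate and a random block could not be added. Leaving out a replicate gave 0 to 2 called probes. For endosperm minus embryo the count was 0 under each scaling, spread and block, and 0 to 181 when a loop was left out. For cross 301/250 minus cross 301/005 it was 3 with centring and scaling and 4 with single arrays and the replicate block (consensus correlation 0.203), and 0 under the other alternatives. The cause was not tested.

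None of the 20 probes chosen by p and by 1 sign in both replicates changed sign. Of 67 named probes, 57 kept theirs under every alternative that used both replicates. Leaving out a replicate could not turn the 20, because of how they were chosen. A changed spread or unit of the fit leaves the mean as it is. For the 20, only the scaling and the path through the loop could turn a sign. Through inbred 301 alone, Zmet3 was at -0.23, HAG103 0.14, NFD109 0.11, WEE1 -0.034, GAPDH -0.023, HSP101 -0.0025 and ubiquitin -0.082. Through inbred 250 alone, MEG1 was at 0.013, H2A -0.023 and SET129 0.058. With 1 replicate left out, the range was -0.016 to 0.61 for Zmet3, -0.37 to 0.073 for NFA101, -0.38 to 0.028 for NFD106, -0.15 to 0.76 for FIE2, -0.015 to 0.40 for H2B5, -0.042 to 0.32 for CENH3, -0.21 to 0.26 for H2A, -0.052 to 0.13 for WEE1, -0.14 to 0.20 for GAPDH, -0.044 to 0.085 for HSP101, -0.23 to 0.014 for actin, -0.11 to 0.14 for ubiquitin, -0.33 to 0.073 for PREM1 and -0.30 to 0.22 for SET113. The chromatin lists had 49 and 51 of 71 means below 0 with centring and with centring and scaling. No signal over background was available to weigh dim probes.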
